A study of Homo sapiens with 6 samples.

Results

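The mitochondrial ribosomal protein genes were followed in a human lung squamous cell carcinoma (LUSC) line with and without MLST8. Members were the genes of the expression table whose symbol starts with MRPL or MRPS and a digit, leaving out read-through, antisense and pseudogene symbols. This gave 78 of the 17448 genes listed, and all 78 passed the filter on low counts that left 12951 genes tested. The RNA-seq libraries came from HCC2814 cells, with 3 WT and 3 MLST8-KO samples from independent experiments. WT cells received a non-targeting guide and MLST8-KO cells a guide against MLST8. By the treatment protocol in the labels this was for 48 to 72 hours before antibiotic selection. By the study's methods the guides were delivered with Cas9 by lentivirus, with a shorter infection before selection. Whether a sample is a pool or 1 clone, and whether replicates of a group carry the same guide, is not given in the sources used here. MLST8 is a subunit shared by mTORC1 and mTORC2, the kinase complexes built on mTOR, and the comparison asks how its loss changes expression in LUSC cells.

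The mitochondrial ribosome (mitoribosome) translates the few proteins that mitochondrial DNA encodes, all of them parts of the respiratory chain and ATP synthase. Its proteins are encoded in the nucleus, made in the cytosol and imported, while its RNAs come from mitochondrial DNA. MRPL genes encode mostly proteins of the large subunit, which forms peptide bonds, and MRPS genes mostly those of the small subunit, which reads the mRNA. Some have a counterpart in the bacterial ribosome (conserved), and others are found in mitochondria alone (mitochondria-specific).

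The targeted gene, MLST8, had counts of 874, 827 and 842 in the WT libraries and of 396, 629 and 401 in the MLST8-KO libraries, in the order of their replicate numbers. It fell by 0.96 on the log2 scale (SE 0.15, adjusted p = 0.00339 by edgeR's quasi-likelihood test), and replicate 2 kept the highest level of the MLST8-KO samples. Libraries held between 14381673 and 15744154 counts. All 8 LUSC epithelial markers examined were present, with a summed level of 10062 to 15251 TPM (transcript counts scaled by gene length and depth to a fixed total) in WT and 18943 to 21012 TPM in MLST8-KO samples, and 6 of the 8 (TP63, SOX2, KRT5, KRT6A, KRT14 and DSG3) were higher in MLST8-KO. Of the 6 immune, stromal and endothelial markers listed, 5 had an entry and CD3E had none. The level summed over the 5 was 10.4 to 12.3 TPM. Most of it was COL1A1, with 9.43 to 11.5 TPM, and the other 4 were under 1 TPM in every library. MLST8-KO replicate 1 stood apart in holding liver-type transcripts, with 232 TPM summed over 6 genes against 0.39 to 5.95 TPM in the other libraries. The part of these transcripts and of the epithelial markers in the results was not tested, and counts of calls without MLST8-KO replicate 1 are given beside those over the members, their classes and the lists of mitochondrial translation. In bulk RNA, fewer cells with a transcript and less transcript per cell cannot be told apart.

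Among mitochondrial ribosomal protein genes, those past the test were lower in MLST8-KO cells with 1 exception, and most did not pass. By edgeR's quasi-likelihood test, with p-values adjusted over all genes tested, 21 of the 78 members were lower (26.9%), against 15.7% of all genes, and 1 was higher (1.28%), against 16.3% of all genes. The other 56 did not pass. The log2 fold change was negative for 68 members and positive for 10, and its median was -0.18, against 0.00 over all genes. In 39 members (50%) every MLST8-KO sample lay below every WT sample in CPM (counts scaled to a fixed library size after TMM scaling), against 24.2% of all genes, and in 2 members, MRPL23 and MRPS25, every MLST8-KO sample lay above, against 24.8%. The single libraries did not take equal parts in this: WT replicate 3 was the highest of the 6 in 36 members (30.2% of all genes), and MLST8-KO replicate 2 was the lowest in 41 (17.0% of all genes). Without MLST8-KO replicate 1 the lower members numbered 8 (10.3%, against 6.50% of all genes), and 47 members lay wholly below the WT samples (27.2% of all genes did), without MLST8-KO replicate 2 also 8 (10.3%, against 8.35%), and without WT replicate 2 10 (12.8%, against 7.97%). With limma on log2(TPM + 1) there were 12 lower members (15.4%, against 8.76% of all genes) and 2 higher ones. In that fit 52 of the 68 negative members kept their sign, and of all calls 71.0% were higher genes, against 51.0% in the edgeR fit. Upper quartile scaling gave 14 lower and 2 higher members, with 62.0% of all calls higher.

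**Figure D1:**
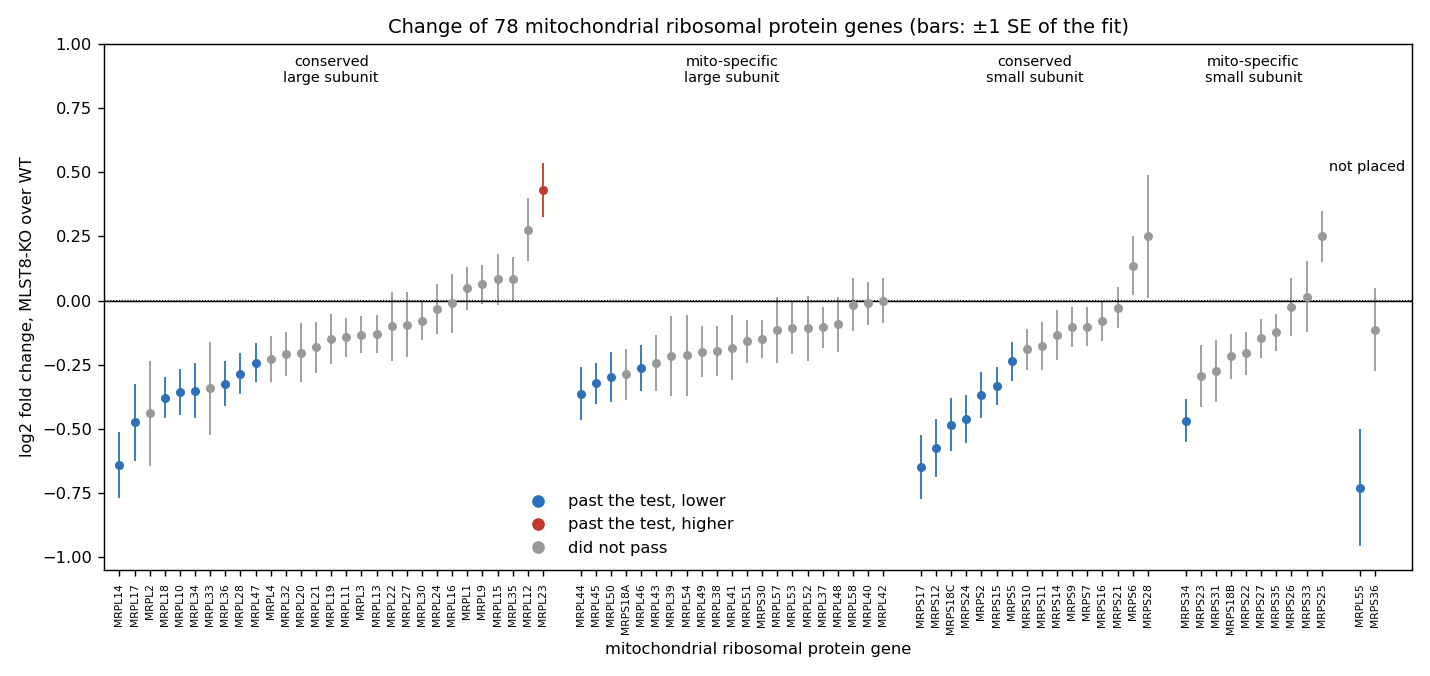
Log2 fold change (MLST8-KO over WT) of the 78 mitochondrial ribosomal protein genes, grouped by subunit and by whether a bacterial counterpart exists; points are edgeR estimates, bars ±1 SE, and colours mark the 21 lower genes, the 1 higher gene and the 56 that did not pass. Most points lie below 0 in every group, from -0.73 for MRPL55 to 0.43 for MRPL23.

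Of the 21 lower members, 7 kept that call under each of the 14 alternative settings: MRPS17, MRPL14, MRPS12, MRPS18C, MRPS34, MRPS24 and MRPL18. The sequence just upstream is shown for the 4 of these that had a stretch of at least 60 bases free of annotated exons within 250 bases before the RefSeq start, to let a reader compare the starts of genes that were lower together. Capitals mark matches to any of 4 motifs searched on both strands: CGCANGCG (bound by NRF1), CCGGAAG (ETS factors such as GABP), AAGATGGC (YY1) and CACGTG (the E-box of MYC and USF). The sequences are from RefSeq (GRCh38.p14), at chr7:55951673-55951792 on the plus strand for MRPS17, chr6:44127458-44127553 on the minus strand for MRPL14, chr4:83455857-83455931 on the plus strand for MRPS18C and chr6:159789750-159789811 on the plus strand for MRPL18.
MRPS17: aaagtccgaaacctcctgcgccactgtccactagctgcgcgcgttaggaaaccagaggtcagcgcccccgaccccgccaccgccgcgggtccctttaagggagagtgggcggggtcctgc
MRPL14: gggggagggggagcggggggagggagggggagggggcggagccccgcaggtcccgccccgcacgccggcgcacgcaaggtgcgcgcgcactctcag
MRPS18C: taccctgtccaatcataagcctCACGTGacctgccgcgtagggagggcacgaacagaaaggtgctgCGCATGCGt
MRPL18: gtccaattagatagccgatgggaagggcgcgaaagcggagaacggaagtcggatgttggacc

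The MRPS18C stretch holds an E-box that starts 179 bases before the RefSeq start and an NRF1 match 135 bases before it, both of which read the same on either strand. The other 3 stretches hold no match, which says only that these letters are not in them. The stretches are parts of the windows searched. Over the whole window MRPL14 held the NRF1 motif and MRPS18C also the ETS motif. MRPL18 held the ETS motif at another of its starts, and MRPS17 held none of the 4. Over the whole 250 bases, windows were found for 70 members. The ETS motif was in 25 of them (35.7%), against 10.2% of 27305 genes with a window and 18.9% of the 10561 of these that were tested for expression. The NRF1 motif was in 15 (21.4%, against 10.5% and 19.5%), the E-box in 9 (12.9%, against 7.73% and 11.3%) and the YY1 motif in 5 (7.14%, against 1.64% and 2.33%). Of the 20 lower members with a window, 7 held the NRF1 motif, 5 the ETS motif, 4 the E-box and 3 the YY1 motif. A match is a match of letters and not a site shown to be bound.

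Of the 26 members of the small subunit, 8 were lower (30.8%, against 15.7% of all genes) and the other 18 did not pass. The median over all 26 was -0.18 (log2 fold change). In 18 (69.2%, against 24.2% of all genes) every MLST8-KO sample lay below every WT sample. Among its 16 conserved proteins 7 were lower (43.8%), and among its 10 mitochondria-specific proteins 1 was lower. Without MLST8-KO replicate 1 the small subunit had 5 lower members, of which 4 were conserved proteins, with 6.50% of all genes lower in that fit. Over the 6 fits made without 1 library it had 5 to 11, with 6.50% to 20.2% of all genes lower. These shares were not tested against each other.

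MRPS17, the uS17 protein of the small subunit (chromosome 7, 55951819 to 55956501, GRCh38, plus strand), measured 33.0, 37.7 and 41.6 CPM in WT and 27.7, 21.3 and 22.6 CPM in MLST8-KO replicates 1, 2 and 3. The groups did not overlap, and the log2 fold change was -0.65 (SE 0.13, adjusted p = 0.0059, edgeR). MRPS17 lies inside the annotated span of NIPSNAP2 on the same strand, so reads of the pair may not be fully separated. MRPS12, the uS12 protein of the decoding centre (chromosome 19, 38930548 to 38933162, plus strand), measured 81.5, 90.3 and 108 CPM in WT and 63.7, 56.8 and 67.6 CPM in MLST8-KO samples. Its log2 fold change was -0.57 (SE 0.11, adjusted p = 0.0064, edgeR), again with no overlap.

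MRPS12 overlaps SARS2 on the opposite strand, the gene for the mitochondrial seryl-tRNA synthetase. SARS2 measured 14.6, 16.6 and 13.7 CPM in WT and 17.0, 19.1 and 21.3 CPM in MLST8-KO samples, so that every MLST8-KO sample lay above every WT sample while MRPS12 lay below. Its log2 fold change of 0.36 (SE 0.12) did not pass (adjusted p = 0.0517, edgeR). Whether the libraries kept strand is not given in the sources used here, and without strand the reads of such a pair cannot be told apart.

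MRPS18C is 1 of 3 paralogs of the bacterial S18 protein (chromosome 4, 83455932 to 83469735, plus strand). It measured 42.0, 52.9 and 51.2 CPM in WT and 35.2, 33.0 and 36.2 CPM in MLST8-KO samples, a log2 fold change of -0.48 (SE 0.10, adjusted p = 0.0083, edgeR). All 3 paralogs had every MLST8-KO sample below every WT sample, as had 50% of all members and 24.2% of all genes. MRPS18A, which sits in the large subunit, had a log2 fold change of -0.29 and MRPS18B one of -0.22, and neither passed (adjusted p = 0.0505 and 0.0800, edgeR). MRPS18C shares its locus with ABRAXAS1 on the opposite strand, which had a mean of 113 counts against 626 for MRPS18C.

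The other lower genes of the small subunit included its most abundant members. MRPS15, with the highest mean TPM of all members (361), measured 390, 378 and 399 TPM in WT and 319, 349 and 331 TPM in MLST8-KO samples. Its log2 fold change was -0.33 and the groups did not overlap. MRPS24 (mean 303 TPM) measured 313, 350 and 358 TPM in WT and 247, 271 and 281 TPM in MLST8-KO samples, with a log2 fold change of -0.46 in the count fit. A read-through transcript, URGCP-MRPS24, is counted apart and had a mean of 2.25 counts against 1336 for MRPS24. MRPS34, the mitochondria-specific protein mS34 the 1 lower member of its class, fell by 0.47 on the log2 scale (SE 0.08, adjusted p = 0.0048, edgeR). MRPS2 fell by 0.37 and MRPS5 by 0.24. MRPS5 overlaps ZNF514 on the same strand (mean 181 counts against 1040 for MRPS5). MRPS2 overlaps C9orf116 on the opposite strand (40.7 against 1937 for MRPS2). The MRPS15 call was lost without MLST8-KO replicate 1 the MRPS2 call without any of 3 single libraries and the MRPS5 call without any of 5.

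**Figure D2:**
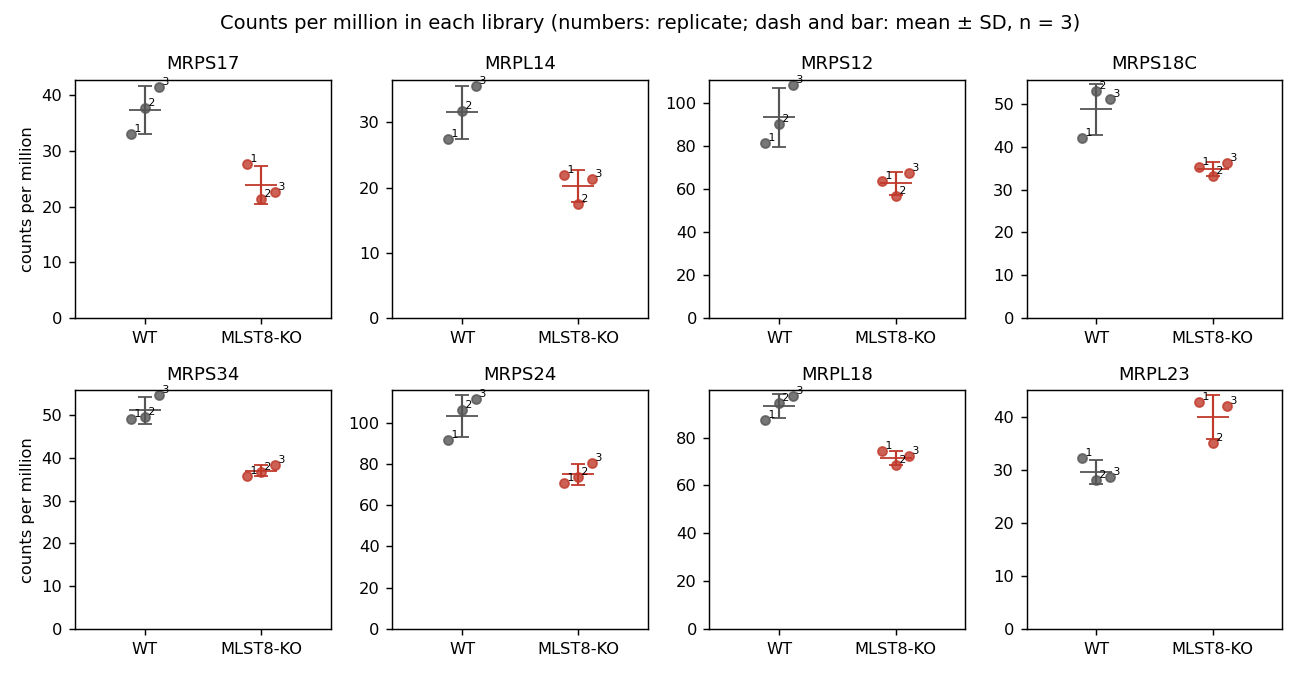
Level in CPM in each WT and MLST8-KO library for the 7 members that were lower under every alternative setting and for MRPL23, the 1 higher member; points are libraries with their replicate number, and dashes with bars are mean ± SD (n = 3). In all 8 panels the WT and MLST8-KO points do not overlap, and MRPL23 alone is higher in MLST8-KO.

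In the large subunit, 12 of 50 members were lower and 1 was higher, against 15.7% lower and 16.3% higher over all genes, around a median of -0.17 (log2 fold change). Without MLST8-KO replicate 1 the large subunit had 3 lower members of 50, with 6.50% of all genes lower in that fit. It also had 3 without WT replicate 2 (7.97% of all genes) and 2 without MLST8-KO replicate 2 (8.35% of all genes). In none of these fits was its share above that of all genes. Of 29 conserved proteins 8 were lower and 1 higher, and of 21 mitochondria-specific proteins 4 were lower. In all, 15 of 45 conserved members (33.3%) and 5 of 31 mitochondria-specific members (16.1%, near the 15.7% of all genes) were lower, while both classes had a median of -0.18. MRPL55, a lower member, and MRPS36, which did not pass, were not placed in a subunit or class here and are outside these counts. Without MLST8-KO replicate 1 these counts were 7 and 1, the latter being MRPS34.

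MRPL14, the uL14 protein at the face that meets the small subunit (chromosome 6, 44113454 to 44127457, minus strand), measured 27.4, 31.7 and 35.5 CPM in WT and 22.0, 17.4 and 21.3 CPM in MLST8-KO samples. Its log2 fold change was -0.64 (SE 0.13, adjusted p = 0.0066, edgeR), without overlap. TMEM63B lies across it on the opposite strand, with a mean of 830 counts against 387 for MRPL14. MRPL17 measured 79.3, 93.6 and 125 CPM in WT and 78.3, 63.8 and 72.3 CPM in MLST8-KO samples. The WT samples spread widely and WT replicate 1 lay close to MLST8-KO replicate 1. Its log2 fold change of -0.47 passed (adjusted p = 0.0359, edgeR) but not in 5 of the 6 fits made without 1 library. MRPL34, MRPL36, MRPL28, MRPL44 and MRPL50 were also lower, by log2 fold changes of -0.35, -0.32, -0.29, -0.36 and -0.30, and each lost its call in 3 to 5 of those fits. MRPL28 overlaps TMEM8A on the same strand (mean 507 counts against 695 for MRPL28). MRPL34 overlaps ABHD8 on the opposite strand (152 against 719 for MRPL34).

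At the L7/L12 stalk, where translation factors bind, MRPL10 was lower (log2 fold change -0.35, adjusted p = 0.0160, edgeR), a call that 3 of the 6 fits made without 1 library lost. MRPL12, the stalk protein itself, went the other way without passing. It measured 99.7, 81.7 and 68.9 CPM in WT and 105, 94.7 and 104 CPM in MLST8-KO samples, and the groups overlapped (log2 fold change 0.28, adjusted p = 0.105, edgeR). MRPL11, at the base of the stalk, had a log2 fold change of -0.14 and did not pass.

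The rim of the tunnel through which new proteins leave held members on both sides. MRPL45, which ties the ribosome to the inner membrane, and MRPL47 were lower, by log2 fold changes of -0.32 and -0.24, though 3 and 5 of the 6 fits made without 1 library lost these calls. MRPL47 had the next highest mean TPM after MRPS15, with 363, 360 and 386 TPM in WT and 328, 355 and 328 TPM in MLST8-KO samples. It overlaps ACTL6A on the opposite strand, which had a mean of 5963 counts against 2946 for MRPL47. MRPL23, the uL23 protein beside them (chromosome 11, 1947278 to 1984522, plus strand), was the 1 higher member, with 32.2, 28.1 and 28.6 CPM in WT and 42.8, 35.1 and 42.1 CPM in MLST8-KO samples. The groups did not overlap and the log2 fold change was 0.43 (SE 0.11, adjusted p = 0.0135, edgeR). Without WT replicate 2 or without MLST8-KO replicate 1 it no longer passed, and the estimate stayed between 0.38 and 0.52 over the 6 such fits. MRPL22 and MRPL24 had log2 fold changes of -0.10 and -0.03 and did not pass.

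The central protuberance, the part of the large subunit that leans towards the small subunit, had 2 lower genes among its 6 members. Over all genes 15.7% were lower. MRPL18 measured 87.6, 94.5 and 97.5 CPM in WT and 74.3, 68.5 and 72.2 CPM in MLST8-KO samples, with a log2 fold change of -0.38 (SE 0.08, adjusted p = 0.0081, edgeR) and no overlap. MRPL46 had a log2 fold change of -0.26 (adjusted p = 0.0464, edgeR) and kept its call in 2 of the 14 alternatives. MRPL38, MRPL48, MRPL58 and MRPL40 had log2 fold changes of -0.20, -0.09, -0.02 and -0.01 and did not pass. MRPL58 is also known as a release factor of stalled ribosomes.

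MRPL55, for which no place is given here, had the lowest log2 fold change of all members, -0.73 (SE 0.23, adjusted p = 0.0349, edgeR). It measured 26.3, 26.9 and 50.7 CPM in WT and 23.0, 18.3 and 21.3 CPM in MLST8-KO samples, so WT replicate 3 stood far above the other WT samples. With WT replicate 3 left out the estimate was -0.35 and still passed, and the call was lost without any one of the MLST8-KO samples. MRPS36, now placed with the 2-oxoglutarate dehydrogenase complex and named KGD4 by RefSeq, had a log2 fold change of -0.11 and did not pass.

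At the upper end of the range, the 5 members after MRPL23 all missed the threshold by edgeR, though MRPL12 passed with limma on log2(TPM + 1) and MRPS25 with upper quartile scaling. Without WT replicate 1, MRPL12, MRPS25 and MRPS6 passed too, with log2 fold changes of 0.42, 0.33 and 0.27. Without WT replicate 3 the value of MRPL12 was 0.16, and without WT replicate 2 that of MRPS6 was 0.05. MRPS25 (mean 12.9 TPM, the lowest of all members) measured 36.7, 33.3 and 29.4 CPM in WT and 40.8, 38.2 and 39.4 CPM in MLST8-KO samples. Its groups did not overlap (log2 fold change 0.25, adjusted p = 0.0741, edgeR). MRPS28 measured 6.63, 9.30 and 4.40 CPM in WT and 7.10, 7.78 and 9.35 CPM in MLST8-KO samples, with overlap and a log2 fold change of 0.25 (SE 0.24). MRPS6 measured 40.6, 30.4 and 32.3 CPM in WT and 39.9, 35.6 and 38.1 CPM in MLST8-KO samples, with overlap and a log2 fold change of 0.14. MRPL35, with a log2 fold change of 0.09, measured 48.6, 49.8 and 44.2 CPM in WT and 53.2, 50.5 and 47.5 CPM in MLST8-KO samples. Its groups overlapped too, as did those of MRPL12 given above.

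Levels of the members spanned 27.9-fold in mean TPM, from 12.9 (MRPS25) to 361 (MRPS15), with a median of 73.4, and 26 members were over 100 TPM. After MRPS25 the lowest were MRPL22, with 12.6, 17.4 and 16.3 TPM in WT and 16.1, 14.2 and 16.1 TPM in MLST8-KO samples, and MRPS14, with 21.4, 21.4 and 18.3 TPM in WT and 20.1, 20.4 and 19.5 TPM in MLST8-KO samples. Neither of these 2 passed. The 21 lower members had a median of 89.8 TPM and the other 57 one of 69.4 TPM. Across the 78 members, which share the same 6 libraries, log2 fold change and mean TPM had a Pearson's r of -0.20 (Spearman's rho -0.22), log2 fold change and transcript GC content an r of -0.14 (rho -0.20), and log2 fold change and transcript length an r of 0.12 (rho 0.10).

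Summed over the members, the level was 7842, 7953 and 8073 TPM in WT and 7508, 7353 and 7416 TPM in MLST8-KO replicates 1, 2 and 3. In absolute units the gap divided differently on each scale, while the small subunit lost the larger share of its WT sum on both. The 26 genes of the small subunit summed to 2592 ± 55.9 TPM in WT and 2289 ± 27.3 TPM in MLST8-KO samples (mean ± SD, n = 3), while the 50 of the large subunit summed to 5236 ± 27.4 and 5042 ± 72.1 TPM. In CPM, the scale of the fit, the small subunit summed to 1603 ± 51.6 in WT and 1362 ± 43.4 in MLST8-KO samples. The large subunit, with the wider gap in absolute CPM alone, summed to 3094 ± 63.6 and 2775 ± 77.3. The ratio of large to small subunit TPM, which no scaling between libraries can move, was 2.06, 2.01 and 1.99 in WT and 2.25, 2.20 and 2.16 in MLST8-KO samples, without overlap. In CPM the same ratio was 1.93 ± 0.025 in WT and 2.04 ± 0.021 in MLST8-KO samples. Sums rest most on the abundant genes, MRPS15 and MRPS24 among them.

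**Figure D3:**
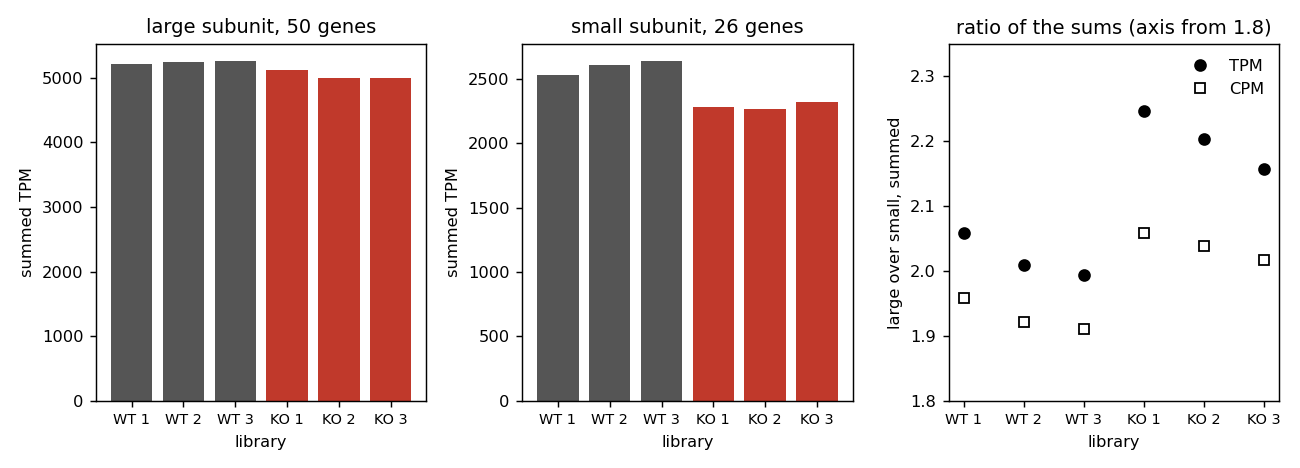
Summed TPM of the 50 large subunit genes and the 26 small subunit genes in each library (bars from 0), and the ratio of large to small sums in TPM and in CPM (points; the ratio axis starts at 1.8). The small subunit sum is 2267 to 2320 TPM in the MLST8-KO libraries and 2530 to 2638 TPM in the WT libraries, and the ratio is higher in every MLST8-KO library.

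Of the mitoribosomal proteins with other symbols, DAP3, a GTP-binding protein of the small subunit, was lower (log2 fold change -0.25, adjusted p = 0.0355, edgeR). Of the 6 fits without 1 library, 4 lost this call. AURKAIP1 had a log2 fold change of -0.36 with no overlap but did not pass (adjusted p = 0.0514, edgeR). PTCD3, CHCHD1 and GADD45GIP1 had log2 fold changes of -0.15, -0.11 and -0.04 and did not pass.

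Of 26 factors that build the mitoribosome, 2 were lower (7.69%) and 4 higher (15.4%), neither above the 15.7% and 16.3% of all genes, and 20 did not pass. Without MLST8-KO replicate 1 these counts were 1 and 2, with 6.50% of all genes lower in that fit. The median log2 fold change was -0.17. NGRN, needed for the large subunit RNA, fell by 0.44 and MALSU1, which keeps the subunits apart during assembly, by 0.42. MTERF3 and MTG1, a GTPase of late large subunit assembly, rose by 0.60 and 0.64, and RBFA, a small subunit factor, and the helicase DHX30 rose by 0.44 and 0.35. NGRN kept its call whichever library was left out, and the other 5 lost it in 1 to 4 of the 6.

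In the other lists of mitochondrial translation the share of lower genes was near or below the 15.7% of all genes in the fit of all 6 libraries. It was 12.5% for translation factors, 15% for the tRNA synthetase list and 16.7% for regulators. The synthetase list also holds QRSL1, GATB and GATC, which are not synthetases. Without MLST8-KO replicate 1 each of these lists had 1 lower gene, with 6.50% of all genes lower in that fit. Without WT replicate 3 the synthetase list had 5 lower genes of 20 and the other lists 1 each, with 11.9% of all genes lower. Of 16 translation factors, 2 were lower: SLIRP, an mRNA-stabilizing protein, with a log2 fold change of -0.44, and MTRF1L, a release factor, with -0.39. Of the 20 genes in the tRNA synthetase list, MARS2, RARS2 and YARS2 were lower by log2 fold changes of -0.67, -0.41 and -0.36. They charge mitochondrial tRNAs with methionine, arginine and tyrosine. LARS2, for leucine, was higher by 0.35. Of 12 regulators of mitochondrial transcription and biogenesis, TFB2M, the factor that opens mitochondrial promoters, fell by 0.76 (SE 0.10, adjusted p = 0.0028, edgeR) and POLRMT, the mitochondrial RNA polymerase, by 0.33. TFB2M measured 98.5, 102 and 118 CPM in WT and 56.9, 61.8 and 69.5 CPM in MLST8-KO samples, without overlap. NRF1, whose motif was searched above, had a log2 fold change of 0.26 and TFAM one of -0.17, and neither passed. MARS2, SLIRP and TFB2M kept their calls whichever library was left out, while RARS2, YARS2, LARS2, MTRF1L and POLRMT lost theirs in 2 to 5 of the 6.

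**Figure D4:**
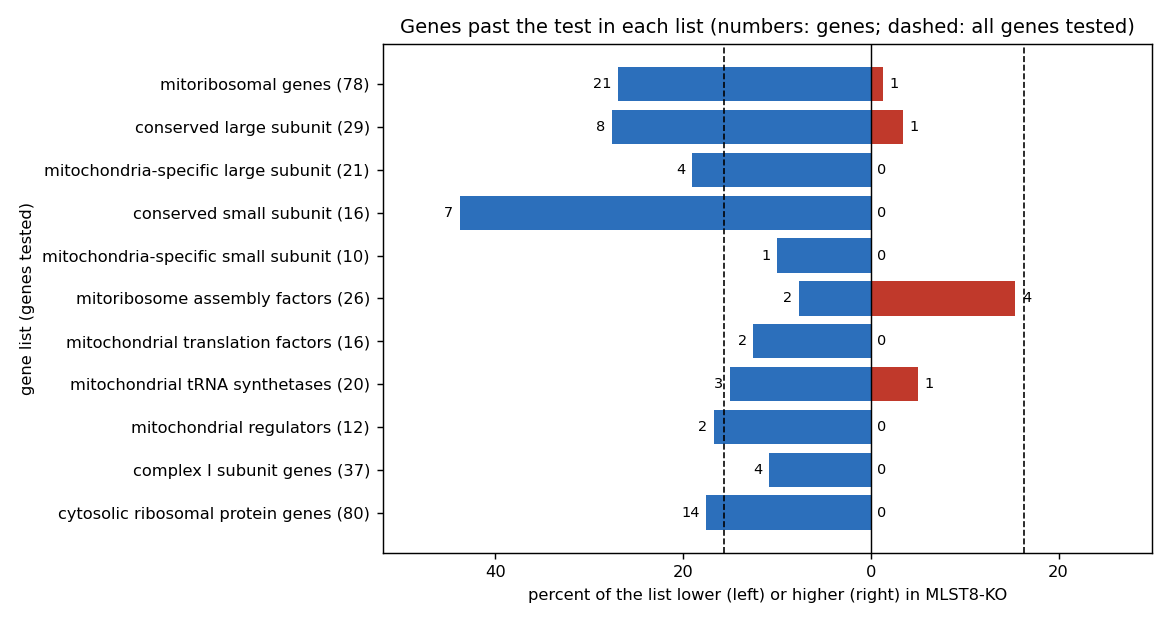
Percent of each gene list that was lower (left) or higher (right) in MLST8-KO by edgeR, with the number of genes at the end of each bar and the number tested after each name; dashed lines mark 15.7% and 16.3%, the shares over all genes tested. The conserved small subunit genes reach 43.8% lower, and assembly factors alone have more higher than lower genes.

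Other gene families of translation and respiration give a scale for these counts. Of 80 cytosolic ribosomal protein genes tested, 14 were lower (17.5%, against 15.7% of all genes). Their median log2 fold change was -0.20, close to that of the mitoribosomal genes. Without MLST8-KO replicate 1, 7 were lower, with 6.50% of all genes lower in that fit. The count depended on single libraries. Without WT replicate 1 it was 43 (20.2% of all genes were lower), where 27 of the 78 mitoribosomal genes were lower. Without MLST8-KO replicate 2 it was 1 (8.35% of all genes were lower), where 8 mitoribosomal genes were lower. In 23 of the 80 (28.8%) every MLST8-KO sample lay below every WT sample, against 24.2% of all genes and 50% of the mitoribosomal genes. Of 37 complex I subunit genes, 4 were lower (10.8%) and the median was -0.08. The families were not tested against each other, and all these values come from the same 6 libraries.

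Of the 78 members, 19 (24.4%) start within 1000 bases of the start of a protein-coding gene that runs the other way (or overlap it by up to 200 bases). For 17 of these the neighbour was tested, and 5 neighbours were lower and 1 higher, against 15.7% and 16.3% of all genes. The lower neighbours include MRPL46, itself a lower member, whose pair with MRPS11 is counted in both directions. MRPL47 and NDUFB5, a complex I subunit whose start is 36 bases away, both had a log2 fold change of -0.24. MRPL18 and TCP1, a subunit of the cytosolic chaperonin, lie 63 bases apart and had log2 fold changes of -0.38 and -0.30, and MRPL50 and ZNF189 had -0.30 and -0.29. Each of these 3 neighbours was lower too, but passed no longer in 4 or 5 of the 6 fits made without 1 library. MRPL46 and MRPS11, which are both members, start 34 bases apart and had log2 fold changes of -0.26 and -0.18, of which the latter did not pass.

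Such pairs did not always move together. Beside MRPL43, which did not pass (-0.24), TWNK, the mitochondrial DNA helicase, was lower with a log2 fold change of -0.42. Beside MRPL57, which did not pass (-0.11), SKA3 was higher with a log2 fold change of 0.55. MRPL36 was lower while NDUFS6, 34 bases away, had a log2 fold change of -0.03 and did not pass. Over the 7 lower members with a tested neighbour, 3 neighbours were lower and 4 did not pass, with 15.7% of all genes lower.

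**Figure D5:**
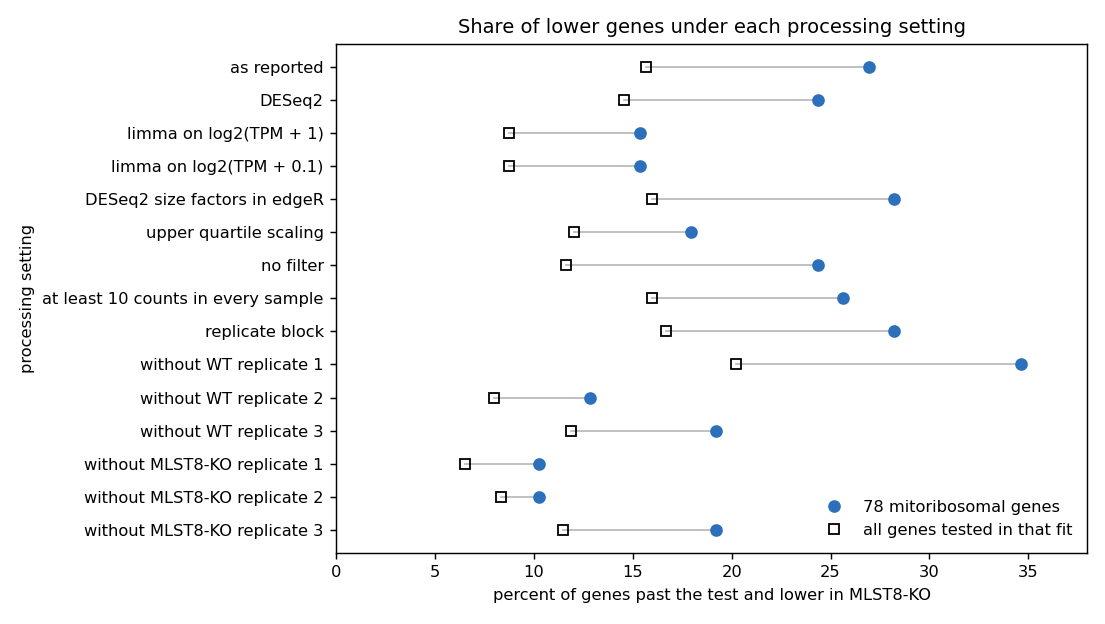
Percent of the 78 mitoribosomal genes (filled circles) and of all genes tested (open squares) that were past the test and lower in MLST8-KO, for the edgeR fit reported here and for each of 14 alternative settings. The members' share is above that of all genes in each setting, by the least without MLST8-KO replicate 2 (10.3% against 8.35%).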

How the data were processed

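Per the labels, RNA from HCC2814 cells was polyA-selected, and per the submitters' processing notes HISAT, Bowtie2 and GRCh38.p12 were used. The counter, its annotation and strand setting are not given in the sources used here. The authors deposited estimated counts and TPM per gene and sample. TPM values were scaled by the authors for gene length and depth. A further table of fold changes and p-values from the authors' own comparison was not used. Estimated counts (12.4% of values not whole) were rounded and tested in edgeR 4.0.16 (R 4.3.3) with TMM, filterByExpr, glmQLFit and glmQLFTest, with 3 WT against 3 MLST8-KO samples and Benjamini-Hochberg adjustment over 12951 genes at a threshold of 0.05. P-values weigh the group difference against the spread between these samples. Whether that is the spread between independent knockouts is not given in the sources used here. The other settings tried were the Wald test of DESeq2 1.42.0, limma 3.58.1 on TPM with a pseudocount of 1 or 0.1 (log2 scale), other scalings and filters, the replicate number as a block, and each sample left out. Replicates of a group differed by more than sampling noise (chi-square per gene 6.98 to 26.5). Gene spans are from GENCODE 29 (GRCh38). The members, lists and tests were chosen with earlier results of these data known. Per-sample values are given for the 6 lowest and 6 highest log2 fold changes, the 3 highest and 3 lowest mean TPM and MLST8, and shorter values for every called member and for the structural lists and pathway lists. SARS2, MRPS24, MRPS34, MRPL18, TFB2M and the head-to-head neighbours were described further, or named, after their values were seen. Genes encoded by mitochondrial DNA were not analysed here. Depth was 14381673 to 15744154 counts, and a count of 0 allows up to 3 counts, for counting error only.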

Additional observations from a re-analysis of the deposited data

How the results depend on the processing

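The number of lower members was 21, and 19 with DESeq2, 22 with DESeq2's size factors in edgeR, 19 with no filter and 20 with at least 10 counts in every sample. It was 12 with limma on log2(TPM + 1) and 12 on log2(TPM + 0.1), and 14 with upper quartile scaling. The number of higher members, 1, became 2 in each of these last 3 settings. Leaving out each sample in turn gave 8 to 27 lower members (10.3% to 34.6%, with 6.50% to 20.2% of all genes lower) and 0 to 4 higher ones. The median of all genes moved by up to 0.10 (log2) with limma on log2(TPM + 0.1), and relative to it the members' median was -0.17. The replicate numbers were not shown to pair the samples (correlations of same-numbered samples 0.0882, 0.0757 and 0.151, each sample's highest). A replicate block gave 22 lower members (28.2%, against 16.7% of all genes) and 1 higher. Of the 68 negative members, 16 turned positive in each limma fit and 7 with upper quartile scaling, and 1 positive member, MRPL35, turned negative with limma. Values follow for the genes named in the text, which include CHCHD1 and GADD45GIP1 beside the members. With limma on log2(TPM + 1) and log2(TPM + 0.1) the log2 fold change became 0.016 and 0.018 for MRPL22, 0.077 and 0.078 for MRPL24, -0.0074 and -0.0075 for MRPL35, 0.098 and 0.10 for MRPL40, 0.011 and 0.011 for MRPL48, 0.094 and 0.095 for MRPL58, 0.0064 and 0.0067 for CHCHD1, and 0.065 and 0.066 for GADD45GIP1. With upper quartile scaling it became 0.022 for MRPL24, 0.044 for MRPL40, 0.040 for MRPL58 and 0.014 for GADD45GIP1. With each sample left out in turn it ranged from -0.19 to 0.019 for CHCHD1, -0.097 to 0.021 for GADD45GIP1, -0.10 to 0.041 for MRPL24, -0.047 to 0.0067 for MRPL40, -0.099 to 0.031 for MRPL58 and -0.25 to 0.018 for MRPS36. The cause was not tested for any of these.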
